A study of Mus musculus with 18 samples.

Results

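Immediate-early genes are transcribed within minutes of a stimulus without the need for new protein synthesis. Transcript levels of 9 of them, Egr1, Egr2, Egr3, Nr4a1, Nr4a2, Nr4a3, Ier2, Ier3 and Ier5, were followed in mouse NIH3T3 fibroblasts through heat shock (HS) and through treatment with tunicamycin. The genes were taken by name from the 20207 genes listed for each of the 18 samples, and all 9 passed the filter of at least 1 read in every sample, as did 12731 genes in all. They were chosen by their read counts and RPKM values in these 6 conditions, so the fold changes and adjusted p-values below place them within fits across all genes and are a description, not an independent test of the 9 genes.

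The 6 conditions, with 3 samples each, were unstressed control cells at 0 min, cells after 45 and 135 min of HS, and cells after 45, 135 and 405 min of tunicamycin. Tunicamycin blocks N-linked glycosylation in the endoplasmic reticulum (ER) and sets off the ER unfolded protein response. By the study's methods, the cells of every condition carried a stably integrated fusion of the L106P destabilizing domain of FKBP with superfolder GFP, were sorted for high fluorescence, and were kept in Shield-1, the ligand that holds the domain folded. The line is a sorted population of an immortalized fibroblast line, HS had no 405 min samples, and no vehicle-treated samples were analysed here, so time in culture and stress cannot be told apart. No source says that the samples of a condition came from separate cultures, so p-values measure the spread between these samples only, which may be technical.

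The 9 genes belong to 3 families. The Egr genes encode zinc finger transcription factors that bind GC-rich sites and are classically driven by serum response factor (SRF) and its ternary complex partners downstream of MAP kinases. The Nr4a genes encode orphan nuclear receptors that act without a known natural ligand and are well-known targets of cAMP and CREB signalling. The Ier genes encode small immediate early response proteins, of which Ier2 and Ier5 are related in sequence and Ier5 has been linked to regulation of the heat shock factor HSF1.

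Promoter sequences are shown for the genes in which searched motifs were found, since CREB and SRF elements are the textbook route to their activation. Of the 9 genes, 6 had an entry in the RefSeq promoter table (build GRCm38.p6), which runs from 250 bases before to 50 bases after each start site and gave 10 promoters for the 6 genes. Egr1, Egr3 and Ier2 had none. Capitals mark every match, on either strand, to the CArG box of SRF, to the CREB half-site TGACG or its palindrome TGACGTCA, which holds the half-site, to the heat shock element pair GAANNTTC, or to the EGR sites GCGGGGGCG and GCGTGGGCG.
Egr2 (chr10:67537619-67537918, plus strand, the third of 5 start sites): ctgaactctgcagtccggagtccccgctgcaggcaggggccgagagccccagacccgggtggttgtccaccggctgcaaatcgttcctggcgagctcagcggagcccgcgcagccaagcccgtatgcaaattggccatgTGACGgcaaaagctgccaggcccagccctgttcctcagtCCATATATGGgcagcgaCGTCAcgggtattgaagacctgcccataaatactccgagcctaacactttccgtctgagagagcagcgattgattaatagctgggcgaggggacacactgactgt
Nr4a1 (chr15:101266596-101266895, plus strand): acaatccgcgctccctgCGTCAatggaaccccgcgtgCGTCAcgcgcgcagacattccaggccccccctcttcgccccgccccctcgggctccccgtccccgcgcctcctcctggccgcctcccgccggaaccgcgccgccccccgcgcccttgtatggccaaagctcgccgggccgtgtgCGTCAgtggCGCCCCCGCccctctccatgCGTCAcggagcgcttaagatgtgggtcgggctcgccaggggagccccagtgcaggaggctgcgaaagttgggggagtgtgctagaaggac
Nr4a2 (chr2:57123954-57124253, minus strand): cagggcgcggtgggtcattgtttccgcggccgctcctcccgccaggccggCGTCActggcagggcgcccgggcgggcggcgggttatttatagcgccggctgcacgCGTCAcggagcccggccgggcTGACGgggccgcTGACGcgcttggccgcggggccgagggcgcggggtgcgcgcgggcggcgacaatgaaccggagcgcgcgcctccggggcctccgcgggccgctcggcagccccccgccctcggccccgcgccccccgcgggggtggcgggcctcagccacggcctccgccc
Nr4a3 (chr4:48045055-48045354, plus strand): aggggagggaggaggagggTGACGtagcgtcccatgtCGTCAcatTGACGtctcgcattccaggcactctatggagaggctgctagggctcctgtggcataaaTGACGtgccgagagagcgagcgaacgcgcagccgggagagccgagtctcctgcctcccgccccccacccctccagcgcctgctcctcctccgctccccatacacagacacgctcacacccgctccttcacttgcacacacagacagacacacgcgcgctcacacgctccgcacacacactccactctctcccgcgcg

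All 3 Nr4a promoters held 4 TGACG matches each. Counted in bases from the start site, they began at -233, -213, -69 and -40 in Nr4a1, at -200, -144, -123 and -111 in Nr4a2, and at -231, -213, -205 and -147 in Nr4a3. A TGACG match was present in 20.8% of the 32851 promoters in the table, and 4 or more were present in 0.231%. The Egr2 promoter printed held 2 TGACG matches, beginning at -111 and -55, and a CArG box between them that began at -72, a motif in 1.63% of all promoters. Egr2 start site 1 held no match to any motif, and start site 2 held a CArG box without TGACG. The windows of start sites 4 and 5 overlap the printed one and hold the same matches. Nr4a1 alone held the EGR site GCGGGGGCG, beginning at -60 and present in 2.91% of promoters. The palindrome TGACGTCA (1.79% of promoters), the heat shock pair GAANNTTC (7.86%) and GCGTGGGCG (0.612%) had no match in any of the 10 promoters, and the Ier3 and Ier5 windows held none of the 6 motifs. The matches describe letters in these windows and say nothing of binding.

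The gene counts of a sample summed to 33415592 at the least and 66478268 at the most. A floor of 3 reads corresponded to 0.0451 to 0.0898 CPM of these totals and covers counting error only. All other CPM are reads scaled to a common library size with TMM. The label of each stress was checked on genes outside the 9. Of 5 heat shock genes, 4 were called higher by edgeR at 135 min of HS and 0 at 45 min. Hspa1b, the inducible Hsp70, had a mean of 873 CPM at 135 min of HS and 183 CPM at 45 min of HS. Its control mean was 5.76 CPM. Of 5 ER stress genes, all 5 were called higher by edgeR at 405 min of tunicamycin, 2 at 45 min and 0 at 135 min, and 4 were at 135 min of HS. All 5 were lower in every library labelled 135 min of tunicamycin than in those labelled 45 min, and Hspa5 and Sdf2l1 also lay below control at 135 min. Ddit3, which encodes the stress factor CHOP, had a mean of 71.9 CPM in control, 542 at 45 min, 208 at 135 min and 2630 at 405 min, and Hspa5, the ER chaperone BiP, had 692, 935, 415 and 9012 CPM. These levels do not run in the order of the labelled times. Whether the labels of 45 and 135 min of tunicamycin were exchanged was not tested, and every statement below on these times, the peak at 135 min included, rests on the labels as given. All 12 fibroblast markers lay above 1 CPM, with a summed level of 22961 to 24990 CPM at 405 min of tunicamycin and 32240 to 82823 CPM elsewhere, and 9 of the 12 were called lower than control at 405 min. Markers of other cell types summed to 12.4 to 17.4 CPM in control and to 32.4 to 34.1 CPM at 405 min of tunicamycin, with 2 or 3 of the 16 above 1 CPM and 2 to 6 at 0 in a condition, and their part in the results was not tested. Of the spread between replicates, 66.6% lay along a single axis on which genes were ordered by GC content (rho = 0.70 by Spearman's rank correlation over genes, themselves no independent replicates), with replicate 3 of 45 min HS, replicate 1 of 135 min HS and replicate 2 of 135 min HS farthest out. Deviations from the condition mean followed it most closely for Ier2 (r = 0.94), Nr4a1 (0.91) and Nr4a2 (-0.90) among the 9 genes. Those of Nr4a3 followed it least (0.25). These values over the 18 samples are a description of samples that share libraries. In bulk RNA, fewer cells with a transcript and less transcript per cell cannot be told apart.

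In mm9, the build of the files, the 9 genes lie apart from each other: Egr1 on chromosome 18 from 35020861 to 35024610, Egr2 on chromosome 10 from 67000617 to 67004936 and Egr3 on chromosome 14 from 70477252 to 70479964. Nr4a1 lies on chromosome 15 from 101097277 to 101105223, Nr4a2 on chromosome 2 from 56959638 to 56976414 and Nr4a3 on chromosome 4 from 48064120 to 48096224. Ier2 lies on chromosome 8 from 87185230 to 87186751, Ier3 on chromosome 17 from 35958658 to 35959856 and Ier5 on chromosome 1 from 156943497 to 156946766. Whether counting used strand is not given in the sources used here, so reads of overlapping antisense transcripts cannot be told apart from those of these genes.

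Per transcript length, Egr1 was the most abundant of the 9 genes in control cells, at 41.6 ± 6.45 RPKM (SD, n = 3). Ier2 followed at 20.8 ± 2.02, Ier5 at 16.6 ± 4.12, Ier3 at 13.4 ± 5.15 and Nr4a1 at 9.93 ± 1.74 RPKM. Egr3 (3.51 ± 0.677), Egr2 (1.48 ± 0.457), Nr4a2 (1.33 ± 0.0711) and Nr4a3 (0.825 ± 1.01 RPKM) were lowest. The order at 135 min of tunicamycin began with Egr1 at 182 ± 9.80, Ier2 at 55.9 ± 14.5 and Nr4a1 at 52.6 ± 5.21 RPKM. By 405 min it began with Ier2 at 34.1 ± 5.36 and Ier3 at 29.8 ± 2.08 RPKM, with Egr1 at 17.5 ± 1.78, Nr4a2 at 5.62 ± 0.562 above Nr4a1 at 4.02 ± 0.362, and Nr4a3 last at 0.0787 ± 0.0151 RPKM. Likewise at 135 min of HS, Ier2 (29.3 ± 8.13 RPKM) lay above Egr1 (17.7 ± 2.90).

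**Figure D1:**
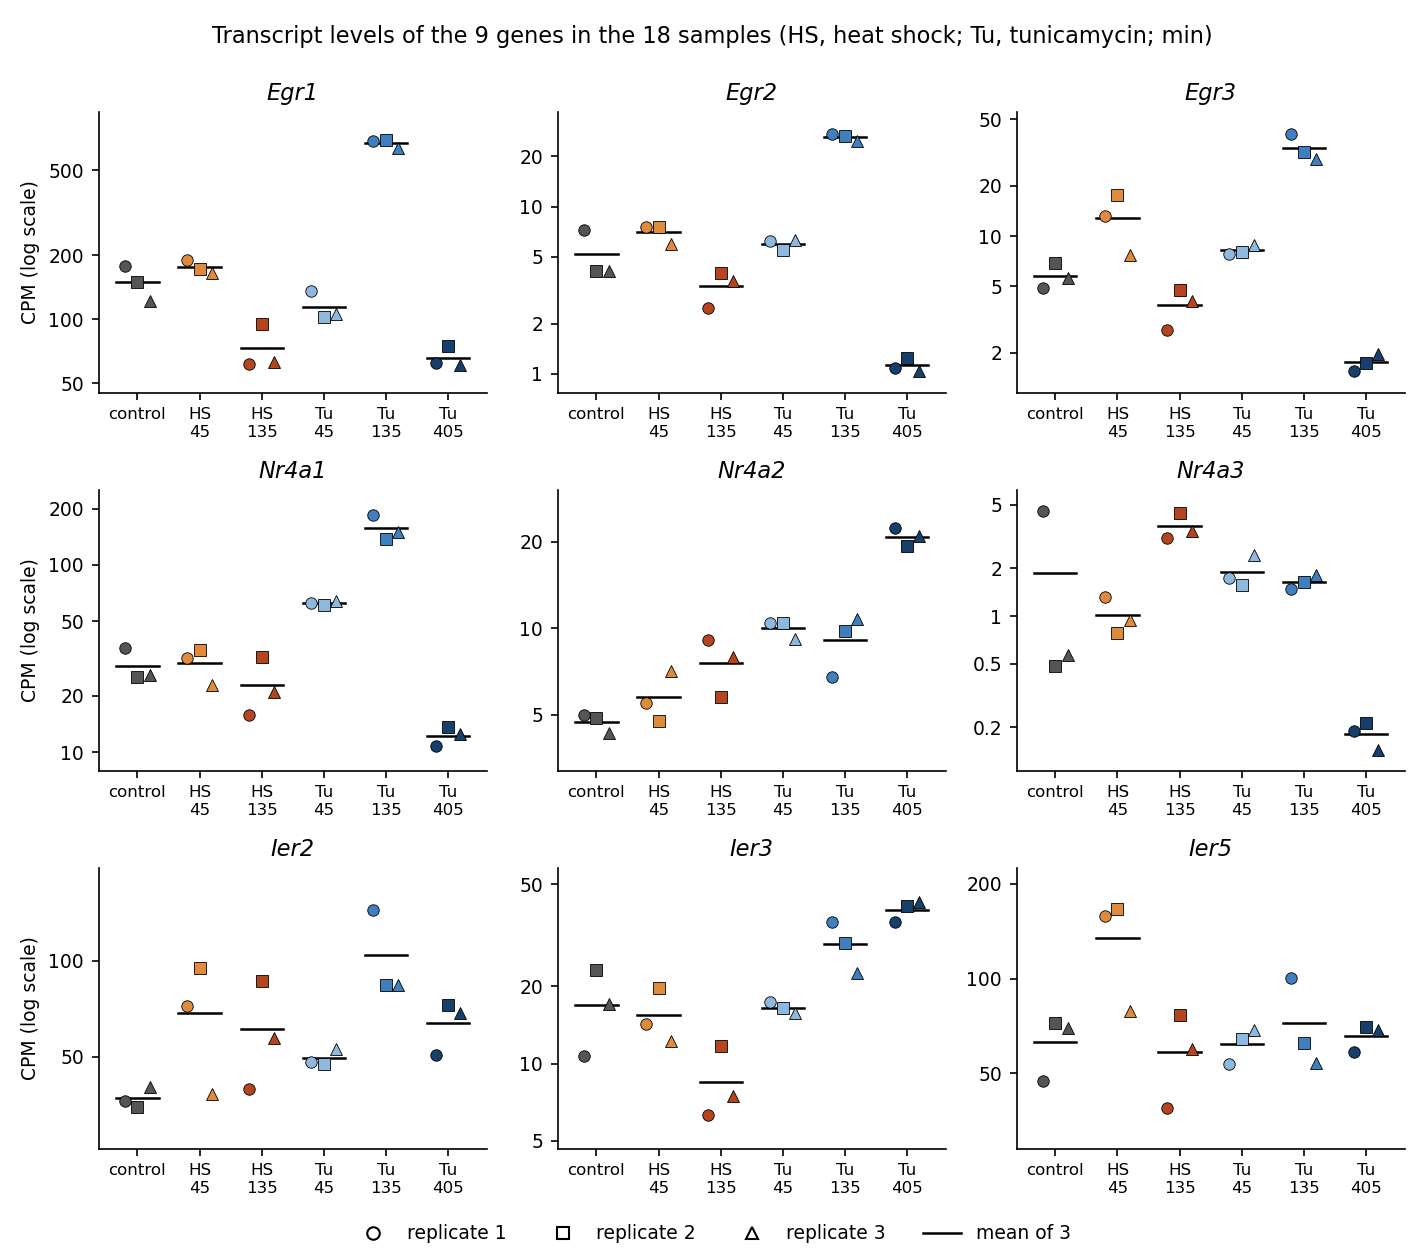
Transcript level of each gene in each of the 18 samples, in TMM-scaled CPM on a log axis that differs between panels; marker shape gives the replicate and the black line the mean of 3. Egr1, Egr2, Egr3 and Nr4a1 peak at 135 min of tunicamycin, Nr4a2 and Ier3 have their highest mean at 405 min, and control replicate 1 of Nr4a3 (4.57 CPM) stands above the other two.

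The Egr transcripts shared a course under tunicamycin, with the highest level of all conditions at 135 min and the lowest mean at 405 min. Egr1, which encodes the most studied factor of the family, measured 179, 149.7 and 122 CPM in control replicates 1 to 3. It measured 136, 103 and 106 CPM at 45 min of tunicamycin, 689, 694 and 639 CPM at 135 min, and 62.4, 74.8 and 61.1 CPM at 405 min. The 135 min samples all lay above, and the 405 min samples all below, every control sample, while those of 45 min overlapped control. Under HS, Egr1 measured 189.7, 172 and 165 CPM at 45 min, overlapping control, and 61.8, 95.3 and 63.3 CPM at 135 min, all below control.

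Egr2, needed for myelination and hindbrain patterning, measured 7.26, 4.14 and 4.12 CPM in control. It reached 27.1, 26.5 and 24.7 CPM at 135 min of tunicamycin, from 6.22, 5.49 and 6.31 at 45 min, and lay at 1.09, 1.25 and 1.04 CPM at 405 min. The 135 min samples stood above those of every other condition, as for Egr1, and the 405 min samples stood below them, which for Egr1 they did not. HS gave 7.58, 7.53 and 5.99 CPM at 45 min and 2.48, 4.01 and 3.59 CPM at 135 min, the latter below all 3 control samples by a narrow margin.

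Egr3, needed for muscle spindles, measured 4.90, 6.86 and 5.65 CPM in control and 40.7, 32.1 and 28.8 CPM at 135 min of tunicamycin. At 45 min of tunicamycin it measured 7.83, 8.05 and 8.85 CPM, already above all control samples, and at 405 min 1.56, 1.75 and 1.98 CPM, below them. Of the Egr genes it had the highest mean at 45 min of HS relative to control, with 13.2, 17.7 and 7.74 CPM, all above control although replicate 3 was far below the other two. Later in HS, at 135 min, it measured 2.74, 4.79 and 4.08 CPM, below control. From low to high the conditions ran in the same order by mean for the 3 genes at both ends, 405 min of tunicamycin below 135 min of HS and 135 min of tunicamycin at the top. The lowest pair overlapped for Egr1 and did not for Egr2 and Egr3.

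The Nr4a genes took 3 different courses. Nr4a1 (Nur77), linked to apoptosis and metabolism, measured 36.0, 25.1 and 25.7 CPM in control, 62.3, 60.9 and 64.2 at 45 min of tunicamycin, 185, 137 and 151 at 135 min, and 10.7, 13.5 and 12.4 CPM at 405 min. Each of these groups lay apart from control, those of 45 and 135 min above it and that of 405 min below. Under HS it measured 31.9, 35.0 and 22.9 CPM at 45 min and 15.7, 32.1 and 20.9 CPM at 135 min, both overlapping control.

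Nr4a2 (Nurr1), needed for midbrain dopamine neurons, measured 4.996, 4.87 and 4.32 CPM in control and was highest where Nr4a1 was lowest. Tunicamycin gave 10.4, 10.4 and 9.19 CPM at 45 min, 6.75, 9.79 and 10.8 CPM at 135 min and 22.3, 19.3 and 20.9 CPM at 405 min. All 3 groups lay above control, those of 45 and 135 min overlapped each other, and that of 405 min stood above every other sample. HS gave 5.52, 4.75 and 7.09 CPM at 45 min, overlapping control, and 9.09, 5.76 and 7.93 CPM at 135 min, above it.

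Nr4a3 (Nor1), the least abundant of the 9 genes in control cells, measured 4.57, 0.482 and 0.572 CPM there, and replicate 1 stood well apart with 182 reads against 27 and 25. It measured 1.72, 1.56 and 2.41 CPM at 45 min of tunicamycin, 1.48, 1.63 and 1.81 at 135 min, and 0.189, 0.212 and 0.144 CPM at 405 min, where 12, 12 and 8 reads lay behind the values. HS gave 1.32, 0.784 and 0.944 CPM at 45 min and 3.08, 4.45 and 3.45 CPM at 135 min, the highest mean of any condition. Only the 405 min samples were separate from all 3 control samples. With control replicate 1 left out, the log2 fold change against control moved from -0.87 to 0.95 at 45 min of HS and from 0.98 to 2.79 at 135 min of HS. Under tunicamycin it moved from 0.05 to 1.85 at 45 min, from -0.16 to 1.65 at 135 min and from -3.31 to -1.48 at 405 min. The size of every value of Nr4a3 against control thus depends on control replicate 1, while the lower level at 405 min does not.

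Among the Ier genes, only Ier2 and Ier3 had conditions called against control. Ier2, a nuclear protein induced by growth factors, measured 36.4, 34.8 and 40.2 CPM in control, 48.0, 47.5 and 53.0 at 45 min of tunicamycin, 144, 83.9 and 83.8 at 135 min, and 50.7, 72.7 and 68.4 CPM at 405 min. These 3 groups lay above control without overlap. Under HS it spread over 72.2, 95.1 and 38.3 CPM at 45 min and 39.8, 86.2 and 57.3 CPM at 135 min, and both groups reached down into the control range.

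Ier3, also called IEX-1 and linked to cell survival, measured 10.7, 23.1 and 17.0 CPM in control. It measured 17.5, 16.5 and 15.7 CPM at 45 min of tunicamycin, 35.8, 29.4 and 22.5 at 135 min, and 35.5, 41.2 and 42.8 CPM at 405 min, and only the last group lay above all control samples. HS gave 14.3, 19.7 and 12.3 CPM at 45 min and 6.29, 11.7 and 7.51 CPM at 135 min, the lowest group of the 6 yet overlapping control through replicate 2.

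Ier5, the member linked to HSF1, measured 47.1, 72.5 and 69.5 CPM in control and 158, 166 and 78.7 CPM at 45 min of HS. This was the only condition in which all 3 Ier5 samples lay above control. The other means lay between 58.5 and 72.4 CPM, at 38.9, 76.7 and 59.8 CPM for 135 min of HS, 53.4, 64.2 and 68.7 CPM for 45 min of tunicamycin, 101, 62.5 and 53.9 CPM for 135 min and 58.3, 70.3 and 68.5 CPM for 405 min, and all of these overlapped control.

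**Figure D2:**
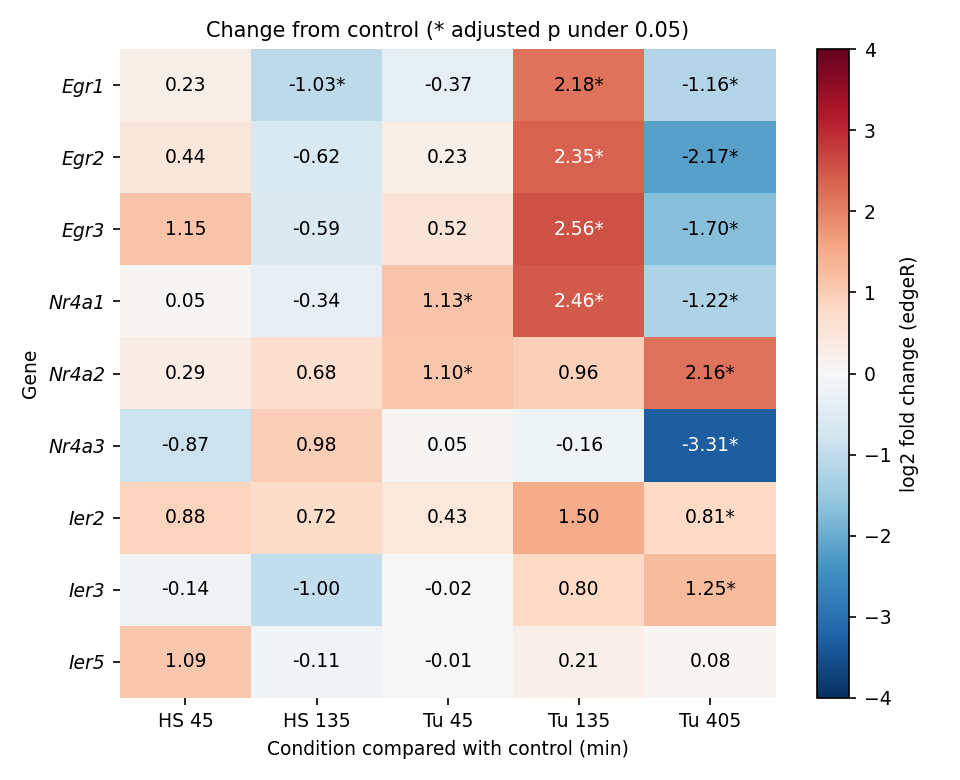
Log2 fold change of each gene against control in the 5 stress conditions, from edgeR with 3 samples a group; colour runs from blue (lower) to red (higher), and an asterisk marks an adjusted p under 0.05. The Egr genes and Nr4a1 go from positive at 135 min of tunicamycin (2.18 to 2.56) to negative at 405 min (-1.16 to -2.17), and Nr4a2 is positive at each tunicamycin time.

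The libraries labelled 45 min of tunicamycin were first set against control. Nr4a1 and Nr4a2 were higher, Nr4a1 by 2.18-fold (log2 fold change 1.13, SE 0.17, adjusted p = 0.0132) and Nr4a2 by 2.14-fold (1.10, SE 0.162, adjusted p = 0.0123), both from edgeR. They were the 2 members called of 9, where 6.17% of all 12731 genes were called in either direction and 4.01% higher. A further 2.17% were called lower. The groups lay apart with tunicamycin higher for 4 of the 9 genes (17.2% of all genes) and lower for 0 (16% of all genes). The Egr genes had log2 fold changes of -0.37 (Egr1), 0.23 (Egr2) and 0.52 (Egr3), and Ier2, whose samples lay apart from control, had 0.43 (adjusted p = 0.0827). Neither call held without replicate 1 or 2 of 45 min tunicamycin or replicate 2 or 3 of control (adjusted p of 0.0502 to 0.0863 for Nr4a1 and 0.0514 to 0.100 for Nr4a2), with log2 fold changes of 1.03 to 1.31 over all fits lacking a sample. Without control replicate 1, where the count was 5, Nr4a3 (adjusted p = 0.00941), Ier2 (0.0461) and Egr2 (0.04) were called as well. Over all 12731 genes the count ranged from 58 to 2499 when 1 sample was left out.

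At 135 min of tunicamycin, the 3 Egr genes and Nr4a1 were 4 of the 16 genes edgeR called higher than control among 12731 tested. The 16 were 0.126% of those tested, with 0.00785% lower and 0.134% called in either direction. Few genes passed in this fit. A single fit of all 6 conditions called 411 of all genes, and a fit with an offset for GC content 312. Egr3 stood 5.89-fold above control (log2 fold change 2.56, SE 0.226), Nr4a1 5.51-fold (2.46, SE 0.215), Egr2 5.10-fold (2.35, SE 0.272) and Egr1 4.54-fold (2.18, SE 0.198). The adjusted p-values from edgeR were 0.0417 for Egr2 and 0.0128 for the other three. Ier2 (log2 fold change 1.5, adjusted p = 0.0781) and Nr4a2 (0.96, adjusted p = 0.13) were also higher in all 3 samples than in any control but were not called, and the groups of Ier3, Ier5 and Nr4a3 overlapped. Among all genes 13.7% lay apart from control on the higher and 13.6% on the lower side. The median log2 fold change was 1.5 over the 9 genes and -0.0029 over all genes. No label pairs the samples, but here those of the same replicate number deviated together in all 3 pairs (correlations of 0.287, 0.236 and 0.194). With the number as a block the same 4 log2 fold changes were 2.2 to 2.56, with an adjusted p of 0.0694 each from edgeR. By that fit 0 of the 9 genes, and 0 of all genes, were called. DESeq2 without the block called 6 of the 9 and 639 of all genes tested.
The 4 calls also changed when 1 sample was left out, although for all 4 genes the tunicamycin samples lay above every control sample. None held without replicate 2 or 3 of 135 min tunicamycin or replicate 2 or 3 of control (adjusted p of 0.0828 to 0.319). Without control replicate 1, 3 held (Egr3 at adjusted p = 0.0680). All 4 held, with Ier2 added, without replicate 1 of 135 min tunicamycin. The lowest log2 fold change of the 4 in these fits was 2.05, and the count over all genes ranged from 0 to 61.

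After 405 min of tunicamycin the same 4 genes lay below control, together with Nr4a3, and 3 others lay above it. Egr2 was 4.51-fold lower (log2 fold change -2.17, SE 0.272, adjusted p = 0.000479), Egr3 3.24-fold (-1.70, SE 0.195), Nr4a1 2.33-fold (-1.22, SE 0.186) and Egr1 2.24-fold lower (-1.16, SE 0.17). Nr4a2 was 4.46-fold higher (2.16, SE 0.144, adjusted p = 3.0e-05), Ier3 2.38-fold (1.25, SE 0.252) and Ier2 1.75-fold (0.81, SE 0.162). Nr4a3 was lower (log2 fold change -3.31, SE 0.934, adjusted p = 0.0198), with -1.48 (adjusted p = 0.00173) once control replicate 1 was left out, and it was not called without any of the 3 tunicamycin replicates 1, 2 or 3 (adjusted p = 0.0797, 0.0599 and 0.0650, at -3.35, -3.43 and -3.18). Thus 8 of 9 genes were called by edgeR, 3 higher and 5 lower, at a time when 46.8% of all genes were called, 23.3% higher and 23.5% lower. The same 8 genes lay apart from control, as did 29.2% of all genes on the higher and 29.5% on the lower side. Ier5 had a log2 fold change of 0.08 (SE 0.178). The other 7 calls held in each of the 6 fits lacking a sample.

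Between 45 and 135 min of tunicamycin, Egr1 was 5.87-fold higher at the later time (log2 fold change 2.55, SE 0.160, adjusted p = 0.0062), Egr2 4.35-fold (2.12, SE 0.143), Egr3 4.11-fold (2.04, SE 0.169) and Nr4a1 2.53-fold (1.34, SE 0.140, adjusted p = 0.0245). These 4 of 9 were called by edgeR where 0.291% of all genes were, 0.118% higher and 0.173% lower. Ier2 (1.07, adjusted p = 0.122) and Ier3 (0.82, adjusted p = 0.140) lay apart in the same direction without being called, so that 6 of 9 lay apart on the higher side, as did 11.3% of all genes (13% on the lower). Nr4a2 had a log2 fold change of -0.13 (SE 0.214). Without replicate 2 or 3 of 135 min or replicate 2 or 3 of 45 min tunicamycin 0 of the 4 calls held, without replicate 1 of 45 min Egr1 alone held, and without replicate 1 of 135 min Ier2 joined the 4. Their log2 fold changes stayed between 1.23 and 2.70 in these fits, and the count over all genes ranged from 0 to 218.

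Between 135 and 405 min the Egr and Nr4a1 transcripts fell to below their control levels. Egr2 was 23.4-fold lower at 405 min (log2 fold change -4.55, SE 0.168), Egr3 19.5-fold (-4.28, SE 0.207), Nr4a1 13.1-fold (-3.71, SE 0.179) and Egr1 10.3-fold lower (-3.37, SE 0.148), each with an adjusted p of 2.6e-05 from edgeR. Nr4a3 was 9.02-fold lower (-3.17, SE 0.247, adjusted p = 0.000108) in a comparison that does not involve control replicate 1. Nr4a2 was 2.25-fold higher (1.17, SE 0.2, adjusted p = 0.00285). Of the 9 genes 7 were called, 6 lower and 1 higher, where 43.7% of all genes were called, 22.4% lower and 21.4% higher, and where 26.9% lay apart on the lower and 29.8% on the higher side. The sixth lower gene, Ier2 (-0.72, SE 0.251, adjusted p = 0.0491), was not called without replicate 1, 2 or 3 of 405 min (-0.58, -0.82 and -0.78, with adjusted p = 0.159, 0.0827 and 0.104), and without replicate 1 of 135 min its log2 fold change was -0.41 (adjusted p = 0.0289).

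HS for 45 min gave no call by edgeR. Of the 9 genes 0, as 0% of all genes, passed an adjusted p of 0.05. Of the 5 heat shock genes 0 passed as well, although 3 of them lay apart from control on the higher side. DESeq2 called 0 of the 9 and 452 of all genes tested. By edgeR 3 of the 9 had an unadjusted p under 0.05, as did 19.5% of all genes. These 3 were Egr3 (log2 fold change 1.15, SE 0.352, adjusted p = 0.227), Ier5 (1.09, SE 0.331, adjusted p = 0.227) and Ier2 (0.88, SE 0.330, adjusted p = 0.240). Without replicate 3 of 45 min HS all 3 were called, Egr3 at 1.41 (adjusted p = 0.00439), Ier5 at 1.36 (0.0033) and Ier2 at 1.17 (0.00316), and without any other single sample 0 were. The count over all genes ranged from 0 to 5785 in the fits lacking a sample. The groups lay apart for Egr3 and Ier5, both higher, and among all genes for 12.5% on the higher and 12.8% on the lower side. Egr3 and Ier2 transcripts rank at the 98.1 and 96.6 percentiles of GC content among the genes tested, and Ier5 at the 58.9. With an offset for GC content the log2 fold changes were 0.21 for Egr3, 0.01 for Ier2 and 0.94 for Ier5. Whether GC content had a part in these changes was not tested.

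After 135 min of HS, Egr1 was 2.04-fold lower than control (log2 fold change -1.03, SE 0.253, adjusted p = 0.0492, edgeR), the 1 gene of 9 called, where 7.39% of all genes were called, 2.64% lower and 4.75% higher. It was not called without replicate 1 or 3 of 135 min HS or any of the control replicates 1, 2 and 3 (log2 fold changes of -0.92, -0.93, -0.89, -1.03 and -1.16, adjusted p = 0.0542, 0.212, 0.0786, 0.174 and 0.138). Egr2 (-0.62), Egr3 (-0.59) and Ier3 (-1.0, adjusted p = 0.118) also had negative values, and Nr4a2 (0.68, adjusted p = 0.139), Ier2 (0.72) and Nr4a3 (0.98) positive ones. The groups lay apart for 1 gene higher (Nr4a2) and 3 lower (the Egr genes), and for 18.1% and 19% of all genes. Without replicate 2 of 135 min HS 3 genes were called, Egr1 at -1.24, Ier3 at -1.27 and Nr4a2 at 0.88. Without control replicate 1 Nr4a3 was called (2.79), and without replicate 1 of 135 min HS Ier2 was (0.95). The count over all genes ranged from 11 to 2464 in the fits lacking a sample, against 941 with all samples. With the GC offset Egr1, Egr3, Ier3, Nr4a1 and Nr4a2 were called, where 2470 of all genes were, and the cause was not tested.

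Between 45 and 135 min of HS, edgeR called 0 of the 9 genes and 0% of all genes, DESeq2 called 4 of the 9, and 6 had an unadjusted p under 0.05, as did 11.6% of all genes. Among all genes tested, DESeq2 called 403 between these times. The groups of Egr1 (log2 fold change -1.31, SE 0.213, adjusted p = 0.157), Egr2 (-1.11), Egr3 (-1.79), Ier3 (-0.92) and Ier5 (-1.25) lay apart with the later time lower. Among all genes 8.29% lay apart that way and 9.44% the other. Nr4a3 lay apart with the later time higher, at 1.80 (SE 0.32, adjusted p = 0.157).

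The stresses were then set against each other at the same time. At 135 min, Egr1 was 9.34-fold lower under HS than under tunicamycin (log2 fold change -3.22, SE 0.245, adjusted p = 0.0127), Egr3 8.91-fold (-3.16, SE 0.292), Egr2 7.91-fold (-2.98, SE 0.257), Nr4a1 6.99-fold (-2.81, SE 0.306, adjusted p = 0.0181) and Ier3 3.50-fold lower (-1.81, SE 0.314, adjusted p = 0.0411). These 5 of 9 were called by edgeR where 2.12% of all genes were, 0.817% lower and 1.3% higher under HS. Nr4a3 alone lay apart with HS higher (1.13, SE 0.265, adjusted p = 0.0782), as did 13.4% of all genes (13.1% lower), and the groups of Nr4a2 (-0.29), Ier2 (-0.79) and Ier5 (-0.33) overlapped. None of the 5 calls held without replicate 3 of 135 min HS or replicate 2 or 3 of 135 min tunicamycin (adjusted p of 0.0995 to 0.225), Egr1 alone held without replicate 1 of 135 min tunicamycin, and 4 held without replicate 1 of 135 min HS, where Ier3 did not. The log2 fold changes of the 5 stayed between -3.42 and -1.63 in these fits.

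At 45 min, edgeR called 0 of the 9 genes between HS and tunicamycin, against 0.204% of all genes (0.0628% higher and 0.141% lower), DESeq2 called 4 of the 9, and 5 had an unadjusted p under 0.05, as did 24% of all genes. Among all genes tested, DESeq2 called 1125 in this comparison. Nr4a1 was lower under HS (log2 fold change -1.07, SE 0.201, adjusted p = 0.0921), as were Nr4a2 (-0.79, SE 0.228) and Nr4a3 (-0.90, SE 0.302), each without overlap of the groups. Ier5 (1.11, SE 0.299, adjusted p = 0.136) and Egr1 (0.61, SE 0.173) lay apart the other way. Among all genes the groups lay apart for 15.7% with HS lower and 13.1% with HS higher. Without replicate 3 of 45 min HS 6 of the 9 were called, Ier5 at 1.39, Egr3 at 0.91, Ier2 at 0.76, Egr1 at 0.65, Nr4a1 at -0.90 and Nr4a2 at -0.97. The count over all genes ranged from 0 to 7087 when 1 sample was left out, so these calls are not particular to the 9 genes. With the GC offset the values of Egr3 and Ier2 turned to -0.24 and -0.37, and the cause was not tested.

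**Figure D3:**
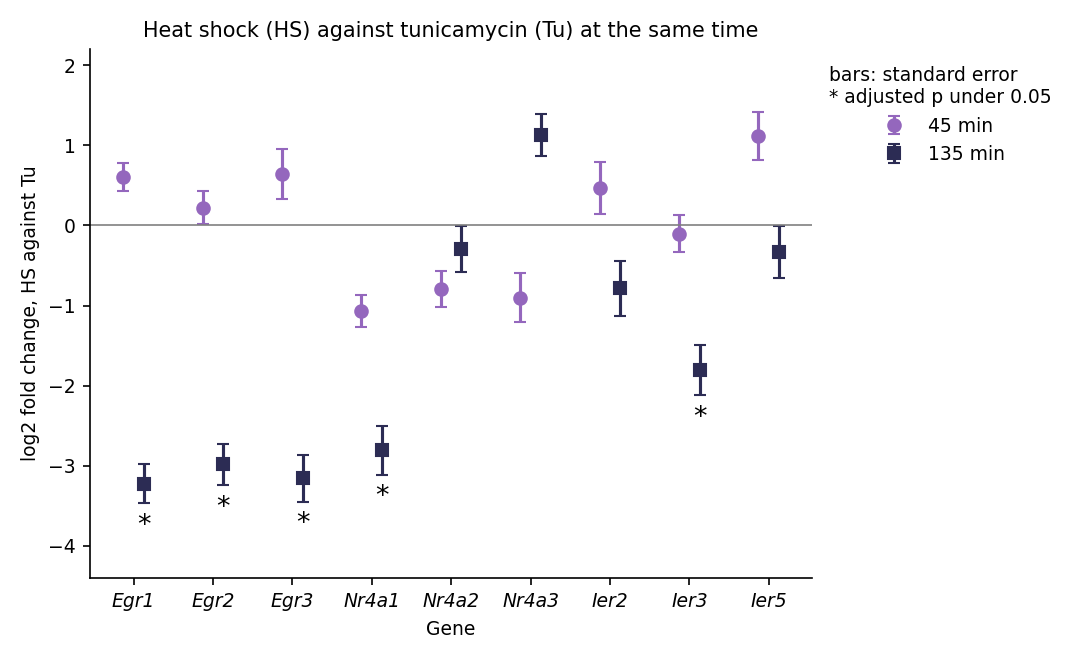
Log2 fold change of HS against tunicamycin at 45 min (circles) and 135 min (squares) for each gene, with the standard error as bars; values below 0 mean a lower level under HS. At 135 min the 5 genes with an asterisk (adjusted p under 0.05) lie between -3.22 and -1.81, and at 45 min none has one.

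Other immediate-early genes were taken from a list of 46, of which 45 were tested. At 45 min of tunicamycin 13 were called higher and 3 lower, led by Atf3, a stress-induced repressor (log2 fold change 4.85), Edn1 (1.89), Myc (1.85) and Klf4 (1.52). Among all genes 4.01% were called higher and 2.17% lower at that time, and 0.126% higher at 135 min. At 135 min 3 were called, all higher: Fosb (2.74, adjusted p = 0.0457), Atf3 (2.19) and Fos (2.14), and with the replicate number as a block 0 were. Fos and Fosb encode AP-1 subunits. The median log2 fold change of the 45 was 0.60 at 135 min, beside 1.5 for the 9 genes. At 405 min 13 were called higher and 17 lower, where 23.3% of all genes were called higher and 23.5% lower. Among them were Atf3 (6.52) and Myc (2.26) above control and Hes1 (-2.27) and Arc (-2.26) below it. From 135 to 405 min 26 were called lower, including Hes1 (-3.87), Fos (-3.35) and Arc (-3.20), and 6 higher, including Atf3 (4.29). Among all genes 22.4% were called lower and 21.4% higher between these times. Between 45 and 135 min of tunicamycin Fos (2.34), Dusp5 (1.54), a phosphatase of ERK, and Zfp36 (1.24), which destabilizes mRNA, were called higher and Atf3 lower (-2.66).

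At 135 min of HS 11 of the 45 were called higher and 2 lower, where 4.75% of all genes were called higher and 2.64% lower. The largest values were those of Atf3 (log2 fold change 5.62), Phlda1 (3.48), Zfp36l1 (2.80) and Arc (2.15). The median was 0.47 against -0.34 for the 9 genes. At 45 min of HS 0 were called by edgeR and 15 by DESeq2, which called 452 of all genes tested. HS against tunicamycin at 135 min gave Atf3 (3.42) and Ccl2 (1.41) higher under HS, and Sgk1 (-1.53) and Trib1 (-1.35) lower. At 45 min Dusp1, a MAP kinase phosphatase, was the only one called (log2 fold change 2.54 with HS higher, adjusted p = 0.0455). The counts of this list moved with single samples as those of the 9 genes did, between 1 and 22 at 135 min of HS, between 0 and 8 at 135 min of tunicamycin and between 25 and 33 at 405 min when 1 sample was left out.

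**Figure D4:**
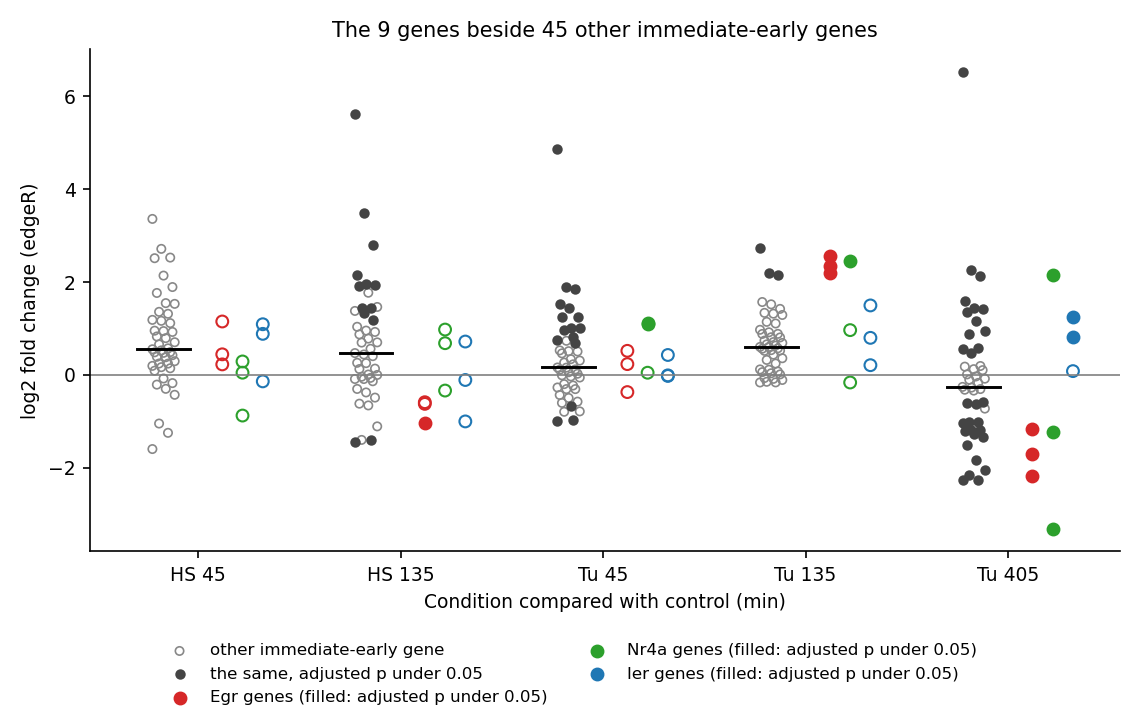
Log2 fold change against control of 45 other immediate-early genes (grey, with a line at their median) and of the Egr (red), Nr4a (green) and Ier (blue) genes in each stress condition; filled symbols have an adjusted p under 0.05. At 135 min of tunicamycin the Egr genes and Nr4a1 lie between 2.18 and 2.56, near Fosb at 2.74, and at 405 min Atf3 lies highest at 6.52 and Nr4a3 lowest at -3.31.

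Family relatives and known partners were read from the same fits. Egr4, the remaining Egr gene, had a mean of 0.0449 to 0.223 CPM in each condition, near the floor. Ier5l, a relative of Ier5, had means of 62.7 CPM in control, 300.01 at 45 min of HS, 111 at 135 min of HS and 31.7 CPM at 405 min of tunicamycin, where it was called lower (log2 fold change -0.96, adjusted p = 0.00327). Of 9 tested partners, Nab2, a corepressor of Egr1, Egr2 and Egr3, was the only one called at 135 min of HS (log2 fold change 1.2, adjusted p = 0.0460). At 405 min of tunicamycin, when 46.8% of all genes were called, 2 partners were higher, among them Hsf1 (0.85). A further 5 were lower, among them Rxra (-0.79), a heterodimer partner of Nr4a1 and Nr4a2. Between 135 and 405 min 3 partners were called lower, Nab2 (-1.47), Rxra (-0.92) and Nab1 (-0.92), and 1 higher, Ppp2cb (0.96), a catalytic subunit of protein phosphatase PP2A. Among all genes 43.7% were called between these times.

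Genes of the pathways upstream were read at 405 min of tunicamycin, when 46.8% of all genes were called. Of 12 transcription factors, 1 was called higher there, Elk1 (log2 fold change 0.95), and 4 lower, including the SRF coactivator Mkl2 (-1.91), Elk3 (-1.36) and Mef2c (-1.19). From 135 to 405 min 6 were called lower, with Mkl2 at -2.45, Mef2c at -1.63, Elk3 at -1.56 and Elk4 at -1.29, and 1 higher. Among all genes 22.4% were called lower and 21.4% higher over that span. None of the 12 was called by edgeR or DESeq2 at 135 min of tunicamycin or at 45 min of HS. Of 13 kinases tested, 3 were higher and 4 lower at 405 min, among them Map2k1 (MEK1, 0.94), Mapk14 (p38 alpha, -1.2) and the CREB kinases Rps6ka5 (-1.09) and Rps6ka4 (-1.07).

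Over the 18 samples, which share conditions and libraries, the levels of Egr1, Egr2, Egr3 and Nr4a1 followed each other, with Pearson's r of log2(CPM + 1) between 0.87 and 0.96. Nr4a2 ran from -0.26 to -0.43 with those 4 genes, and Nr4a3 from -0.75 with Ier3 to 0.35 with Egr2. Among all genes of at least 1 CPM, the 2 most like Egr1 were Smarcd1 (r = 0.92) and Dusp5 (0.91), and those most like Egr3 were Dusp5 (0.93) and E2f7 (0.93). Npas4, itself an immediate-early gene, came first for both Egr2 (0.95) and Nr4a1 (0.94). Nr4a2 was most like Dpf2 (0.96) and Ccl9 (0.95), Nr4a3 like Zan (0.93) and Zfp462 (0.91), Ier2 like Ctdsp1 (0.91), Ier3 like Dlat (0.97) and Ier5 like Hmgn2 (0.95). These are descriptions of how levels moved together across the 6 conditions.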

How the data were processed

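Poly(A) RNA of NIH3T3 cells was sequenced in 18 samples, 3 for each of 6 conditions grouped by the deposited labels. By their methods, the authors used the DNAnexus platform to map reads to mm9 and to count those on RefSeq models, with aligner, counter and versions not given in the sources used here. Their methods name more than 1 library preparation route without assigning samples to it, and its part in the results was not tested. The deposited files give an estimated count for each gene, not normalized and between 23.9 and 27.1% not whole among low values. The authors also computed RPKM per kilobase of gene model. The authors also deposited a score, the RPKM of a gene centred and divided by the SD of its library. They further deposited a signal, RPKM scaled to the root mean square of the library by the authors. Neither was tested. The 9 genes and all gene lists were chosen with earlier results of these data known. All 9 genes are named, and up to 4 called genes of a list by size of change in each comparison; partners and check genes could be named whole.

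Estimated counts were rounded to whole numbers and genes lacking a read in 1 or more of the 18 samples were removed, leaving 12731 of 20207. Each of 10 comparisons was fitted on its 6 samples with edgeR 4.0.16 (quasi-likelihood, TMM) in R 4.3.3, with Benjamini-Hochberg adjustment over all genes at 0.05. CPM were TMM-scaled over all samples, and levels of different genes were compared only in RPKM. Alternatives were DESeq2 1.42.0, other filters and scalings, a shared fit, a replicate block, a GC offset (lowess span 0.3, with a GC value for 97.6% of tested genes), a fold minimum, and leaving out each sample. Scripts were tested on simulated data. Replicate libraries differed by more than sampling noise (chi-square per degree of freedom of 16.1 to 892). Samples of the same replicate number deviated together in all 3 pairs only between 135 min of tunicamycin and control (correlations of 0.287, 0.236 and 0.194), as a pattern in the data and not in the labels. Depth was 33415592 to 66478268 reads per sample.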

Additional observations from a re-analysis of the deposited data

Results flagged for a closer look

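These differences were picked out because the change of a gene differed between conditions by a test of the difference itself, all from edgeR as log2 fold changes. Between HS and tunicamycin at 135 min they were Egr1 (-3.22), Egr3 (-3.16), Egr2 (-2.98), Nr4a1 (-2.81) and Ier3 (-1.81), each lower under HS. Between 135 and 45 min of tunicamycin they were Egr1 (2.55), Egr2 (2.12), Egr3 (2.04) and Nr4a1 (1.34), each higher at 135 min. Between 405 and 135 min of tunicamycin they were Egr2 (-4.55), Egr3 (-4.28), Nr4a1 (-3.71), Egr1 (-3.37), Nr4a3 (-3.17) and Ier2 (-0.72), lower at 405 min, and Nr4a2 (1.17), higher. No group had more than 3 samples, so single samples were not tested as outliers.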

How the results depend on the processing

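Of the 9 genes, the number called changed by over 1.5 times as follows, and the cause was not tested. With 1 fit of all 6 conditions, 2 were called at 45 min of HS, 3 at 135 min of HS, 4 between the HS times and 4 between HS and tunicamycin at 45 min. DESeq2 called 4 between the HS times and 4 between HS and tunicamycin at 45 min. The GC offset gave 5 at 135 min of HS, 2 between the HS times and 1 between the stresses at 45 min, where total counts without TMM also gave 1. With the replicate block, 0 were called at 135 min of HS, 45 min and 135 min of tunicamycin, between 45 and 135 min of tunicamycin, and between the stresses at 135 min. The GC offset with the block gave 0 in the last 3 of these. The block result at 135 min of tunicamycin stands in the report. In the other comparisons samples of the same replicate number did not deviate together in all 3 pairs, and no label pairs samples in any comparison. With 1 sample left out, counts ranged from 0 to 3 at 45 min and 0 to 3 at 135 min of HS, 0 to 5 at 45 min and 0 to 5 at 135 min of tunicamycin, 7 to 8 at 405 min, 0 to 5 from 45 to 135 min, 6 to 8 from 135 to 405 min, 0 to 6 between the stresses at 45 min and 0 to 5 at 135 min, and stayed at 0 between the HS times.

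Values that changed sign were none of those called in the main comparisons. With total counts, the log2 fold change was -0.13 for Nr4a1 at 45 min of HS, 0.078 for Ier3 and 0.089 for Ier5 at 45 min of tunicamycin, -0.025 for Ier5 at 405 min, and -0.068 for Egr2 between the stresses at 45 min. With the block it was 0.042 for Ier3 and 0.010 for Ier5 at 45 min of tunicamycin and 0.55 for Nr4a3 at 135 min. With the GC offset it was -0.44 for Nr4a1 at 45 min of HS, 0.12 for Ier2 between the HS times, and -0.24 for Egr3 and -0.37 for Ier2 between the stresses at 45 min. With the GC offset and the block these were -0.44, 0.12, -0.24 and -0.36, and Ier3 (0.032), Ier5 (0.0033) and Nr4a3 (0.63) also turned in the comparisons named for the block. With 1 sample left out, Ier5 ranged from -0.32 to 0.11 at 135 min of HS, -0.19 to 0.10 at 45 min, -0.083 to 0.38 at 135 min and -0.084 to 0.17 at 405 min of tunicamycin, -0.069 to 0.39 from 45 to 135 min and -0.33 to 0.15 from 135 to 405 min. Nr4a3 ranged from -1.34 to 0.95 at 45 min of HS, -0.43 to 1.85 at 45 min and -0.63 to 1.65 at 135 min of tunicamycin. Ier3 ranged from -0.38 to 0.15 at 45 min of HS, -0.27 to 0.27 at 45 min of tunicamycin and -0.33 to 0.037 between the stresses at 45 min. Nr4a1 at 45 min of HS ranged from -0.079 to 0.24, Nr4a2 from 45 to 135 min of tunicamycin from -0.27 to 0.063, and Ier2 between the HS times from -0.52 to 0.10.

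Counts over all genes moved as well. At 45 min of HS 0 genes were called by edgeR, 452 by DESeq2, 1346 in the shared fit and 0 to 5785 with 1 sample left out. At 135 min of HS 941 were called, 2159 by DESeq2, 3243 in the shared fit, 2470 with the GC offset, 0 with the block and 11 to 2464 with 1 sample left out. At 45 min of tunicamycin 786 were called, 1843 by DESeq2, 1933 with the GC offset, 521 with the GC offset and block, 21 with the block and 58 to 2499 with 1 left out. At 135 min 17 were called, 639 by DESeq2, 411 in the shared fit, 312 with the GC offset, 0 with the block and 0 to 61 with 1 left out. From 45 to 135 min 37 were called, 623 by DESeq2, 298 with the GC offset and 105 in the shared fit, and between the stresses at 135 min 270, against 1256 by DESeq2, 1508 with the GC offset and 1771 in the shared fit. Scaling by total counts moved the median log2 fold change of all genes from -0.03 to -0.19 at 45 min of HS and from -0.05 to -0.33 between the stresses at 45 min. At low counts, Nr4a3 at 405 min of tunicamycin rested on 8 to 12 reads a sample.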
